A study of Homo sapiens with 2 samples.

Results

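The long Alu clusters were 822 of the 20200 clusters that the authors placed in the Alu class, a share of 4.07% (Wilson 95% interval 3.81 to 4.35%). They were chosen by length alone: end minus start had to be 300 bases or more, about the size of a full Alu repeat. Repeat boundaries were not used here, so whether a long cluster runs past its own repeat was not examined. The whole list holds 23782 clusters, regions of hg19 where reads from RNA crosslinked to ADAR1 lay together. It was made by CLIP-seq (ultraviolet crosslinking, immunoprecipitation and sequencing) in U87MG, an established human glioblastoma (astrocytoma) line. Both libraries came from U87MG cells at passage 6, 1 labelled AB1 and 1 labelled AB2 for the ADAR1 mouse monoclonal antibody. The design text names 2 different antibodies, while the labels of both libraries cite the same catalogue entry, so whether AB1 and AB2 are different antibodies is not settled here. Irradiation was at 254 nm with 2 pulses of 800 mJ per cm2. The list is for the whole series and names no library for any cluster, so how AB1 and AB2 entered it is not known. It gives no read number for any cluster. No value below therefore has a replicate or a known depth, and no test over samples was possible.

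ADAR1 edits RNA: in paired stretches it turns adenosines into inosines, and most of this editing in human cells falls in Alu repeats. An Alu is a short primate retrotransposon built of a left and a right arm, both derived from the signal recognition particle RNA, with an A-rich stretch between them and another at the end. Copies in opposite orientation within a transcript can pair and form the long duplex that ADAR1 binds. Alu repeats sit mainly in introns and in the untranslated ends of messages.

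The size of a cluster was set against the size of the cloned fragments. Per the labels' protocols, PCR products from 75 to 250 bp were cut from a gel after 23 cycles. Each product was flanked by the linkers below, which are shown because their lengths bound the RNA that one fragment could hold.
5′ linker: agggaggacgaugcgg
3′ linker: ctgtaggcaccatcaat
With 16 and 17 bases of linker, a product of 250 bp leaves at most 217 bases for the RNA. No single selected product could thus hold 300 bases of contiguous RNA. How fragments were joined, and whether clusters were extended, is not given in the files or labels. Clusters of up to 217 bases made up 71.4% of the Alu class, and those of 218 to 250 bases 20.6%. Only 8.0% (1617 clusters) exceeded the gel limit of 250 bases, and the long clusters were about as many as the 795 between that limit and 300 bases.

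Long Alu clusters did not thin out evenly with length. Their median was 362 bases, the quartiles were 330 and 371 bases, and the range was 300 to 727 bases. The lengths that chose the members are given as a description only. Of the 822, 404 (49.1%) were 360 to 389 bases long. The 60 bases of length below that range held 386, and only 32 (3.89%) were 390 bases or longer. In steps of 10 bases, the step from 350 bases held 55 clusters, the step from 360 held 220, the step from 380 held 98 and the step from 390 held 15. The histogram thus had a rise at 360 bases, well past the gel limit, and a steep drop at 390 bases. A rise was also seen below the threshold. There the step from 280 bases held 211 clusters, against 96 in the step from 270 and 95 in that from 290. The steps from 250 and 260 bases held 205 and 220. Of the non-Alu clusters, 163 reached 300 bases. Among these, 30 (18.4%) lay between 360 and 389 bases and 57 (35.0%) at 390 bases or more. Their step from 350 bases held 3 clusters and that from 360 held 14, so a rise at 360 bases was seen there too, in small numbers. Their steps from 380 and 390 bases held 6 and 5.

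**Figure D1:**
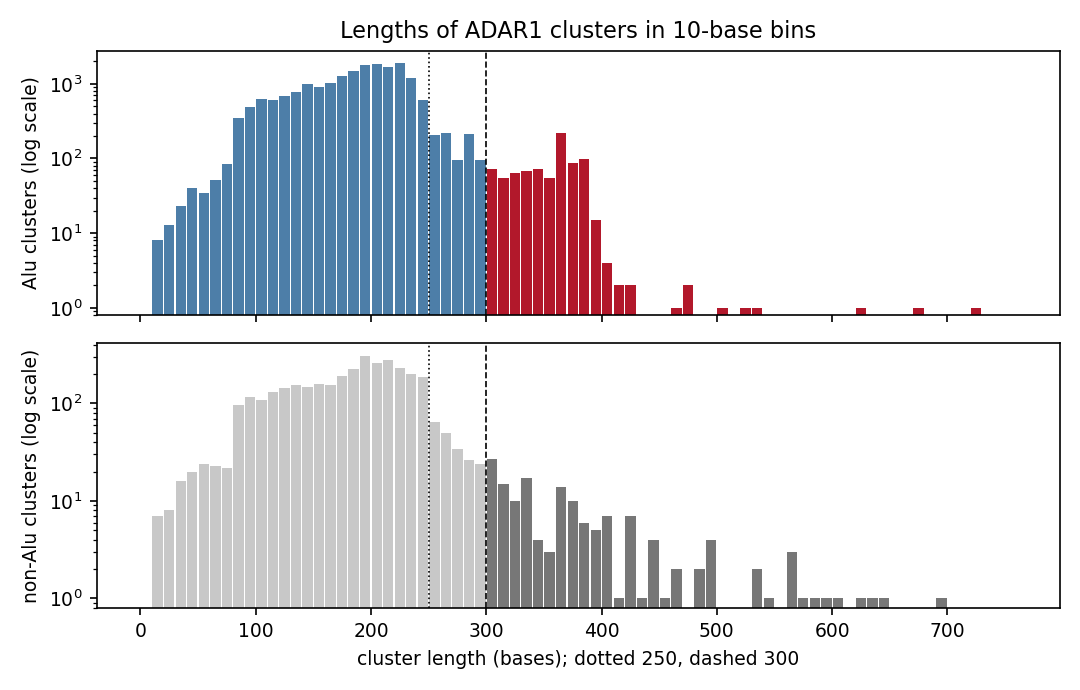
Number of clusters (log axis) by length in 10-base bins, for the Alu class above and the non-Alu class below; clusters of 300 bases or more are drawn darker (red and dark grey), and the few longer non-Alu clusters are not drawn. The Alu bin from 360 bases holds 220 clusters against 55 in the bin before it, and the bin from 390 bases holds 15.

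The same exact lengths also came back at many places in the genome. A length of 369 bases was shared by 45 long Alu clusters on 20 chromosomes, 25 of them plus and 20 minus. A length of 367 bases was shared by 43, and 368 bases by 36. These 3 neighbouring lengths held 124 clusters, 15.1% of all long ones, on 23 chromosomes, with 62 on each strand. A separate peak at 363 bases held 37 clusters, against 14 at 362 and 13 at 364 bases. Another pair of lengths, 384 and 385 bases, held 25 and 23, and smaller peaks stood at 330 bases (22 clusters) and 313 bases (19). In all, 22 of the 111 lengths found among the long clusters were each held by 10 or more of them, and together accounted for 426 clusters (51.8%).

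Recurring lengths were a feature of the Alu class in this list, below the threshold as well. Among the 827 Alu clusters from 250 to under 300 bases, 83 were exactly 264 bases long, against 21 of 263 and 24 of 265 bases. A further 47 were 288 bases long and 44 were 281. Among the 163 non-Alu clusters of 300 bases or more, no length was held by more than 4. That smaller class gives each length less chance to recur, and the difference was not tested. At the threshold itself, 10 Alu clusters had exactly 300 bases and the longest excluded length, 298 bases, was held by 19. The bin from 300 bases held 72 clusters and the bin before it 95.

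**Figure D2:**
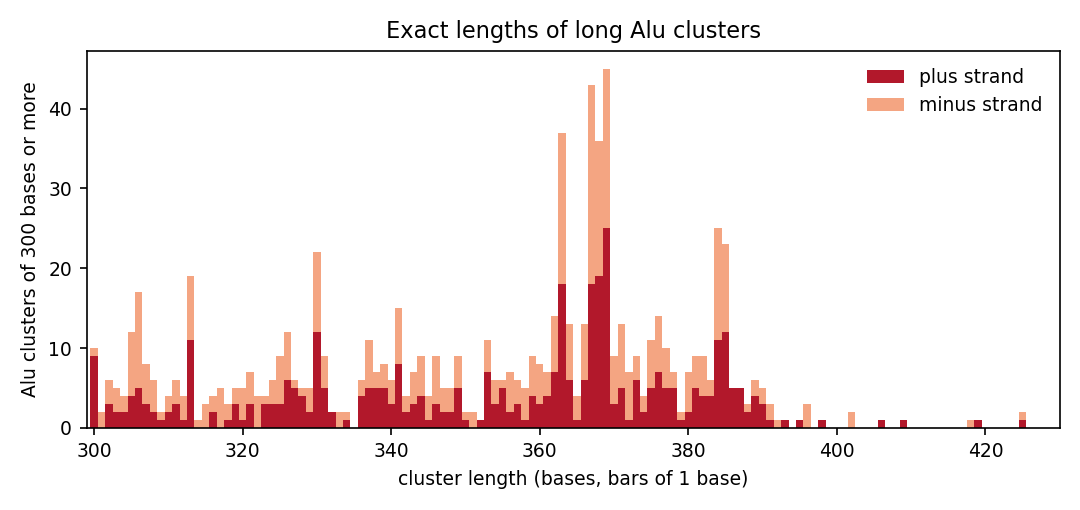
Number of long Alu clusters at each exact length from 300 to 430 bases (bars of 1 base), with the plus strand in red and the minus strand stacked on it in orange. The tallest bars are at 369 bases (45 clusters), 367 bases (43) and 363 bases (37), and both strands contribute to each.

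Beyond 400 bases only 17 clusters remained, and the 15 longest are described here by position, counted from 1 on hg19. The longest had 727 bases and was found on chromosome 16 (21413968 to 21414694, minus strand). A cluster of 672 bases lay on the plus strand of chromosome 9 from 129437715 to 129438386. The third, of 621 bases, was on the plus strand of chromosome 17 from 59147181 to 59147801. It alone among the 15 had a same-strand cluster within 1000 bases: an Alu cluster of 200 bases ended 10 bases before it on its 5′ side. The next passed 500 bases as well, with 532 bases on chromosome 1 (151183965 to 151184496, plus), 524 on chromosome 6 (83985144 to 83985667, minus) and 501 on chromosome 4 (141849580 to 141850080, minus). Only these 6 long Alu clusters, 0.730%, had 500 bases or more, and only the first 3 reached 600 bases, the length of a pair of full repeats end to end.

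The other 9 of these lay between 406 and 475 bases. They were on chromosome 16 (475 bases, 22546870 to 22547344, plus), chromosome 5 (471 bases, 145547103 to 145547573, minus) and chromosome 7 (463 bases, 77567687 to 77568149, plus). Clusters of 425 bases were found on chromosome 8 (144133242 to 144133666, plus) and chromosome 9 (107676036 to 107676460, minus). Chromosome 8 held another of 419 bases (73958548 to 73958966, plus), and chromosome 1 one of 418 bases (204102604 to 204103021, minus). The last were on chromosome 4 (409 bases, 72992892 to 72993300, plus) and chromosome 19 (406 bases, 37377464 to 37377869, plus). Around 9 of the 15, all other clusters within 50 kb lay on the same strand; 2 had only clusters of the other strand there, 2 had both and 2 had none.

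Long Alu clusters occurred on all 24 chromosomes, at shares that varied from 2.33% to 7.51% of the Alu clusters of a chromosome. Chromosome 21 had the highest share, with 19 of 253 (7.51%, Wilson interval 4.86 to 11.4%), and chromosome 18 the next, with 32 of 439 (7.29%, 5.21 to 10.1%). Chromosome 7 followed among the well-filled chromosomes with 59 of 1086 (5.43%, 4.24 to 6.94%), and chromosome 1 had the most, 76 of 1889 (4.02%, 3.23 to 5.01%). Chromosome 19, which is dense in genes and in Alu repeats, had the lowest share, 21 of 902 (2.33%, 1.53 to 3.53%). Chromosome 22 was close to it with 12 of 458 (2.62%, 1.51 to 4.52%). For 20 of the 24 chromosomes the interval held the share over the whole genome. Differences between single chromosomes were not tested, and among 24 intervals some can miss that share by counting error alone. The intervals of chromosomes 7, 18 and 21 lay above it and that of chromosome 19 below it. With a threshold of 280 bases the share of chromosome 19 was 0.854 times that of all chromosomes, with an interval that held 1 (0.637 to 1.14). With 350 bases that of chromosome 21 was 1.46 times, also with an interval that held 1 (0.775 to 2.72).

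**Figure D3:**
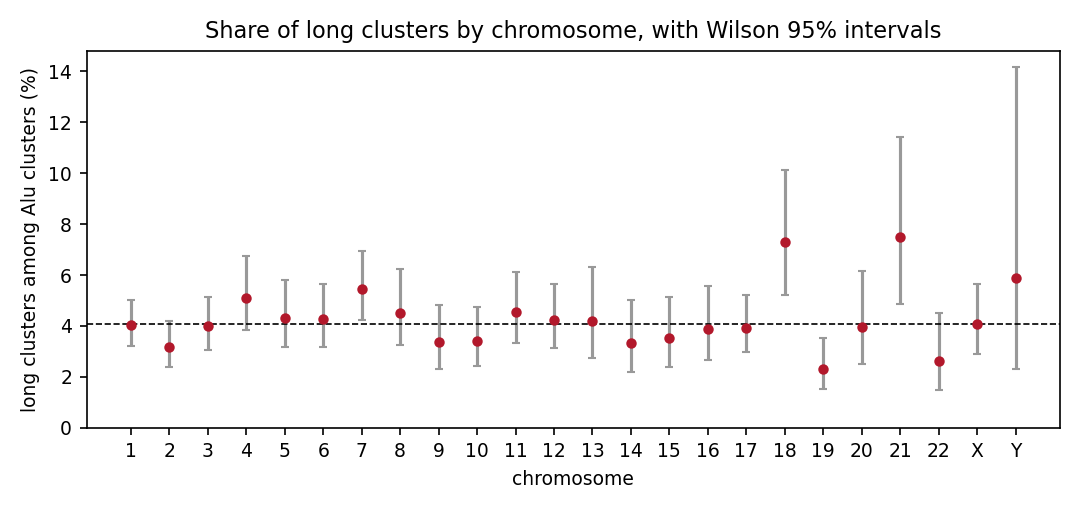
Long clusters as a percentage of the Alu clusters of each chromosome, with Wilson 95% intervals (counting error only); the dashed line is the share over all chromosomes, 4.07%. Chromosomes 18 and 21 stand at 7.29% and 7.51%, and chromosome 19 at 2.33%; chromosome Y holds only 4 long clusters of 68.

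Long Alu clusters lay in emptier surroundings than short ones. No other cluster of either class or strand had its midpoint within 50 kb of 238 of the 822 long clusters (29.0%, Wilson interval 26.0 to 32.1%). Among the 19378 Alu clusters under 300 bases, 3968 were alone in this way (20.5%, 19.9 to 21.1%). The difference was 8.48 percentage points (Newcombe 95% interval 5.43 to 11.7), and the intervals of the shares did not overlap. The median number of other clusters within 50 kb was 1 for long and 2 for short Alu clusters, and the means were 1.59 and 1.94. Clusters of one place share their surroundings, so these intervals cover counting error as if each were independent and are too narrow.

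The difference was part of a gradient over the whole range of lengths. Alone within 50 kb were 29.2% of Alu clusters of 380 bases or more (n = 130), 30.5% of those from 350 bases (n = 361) and 27.2% of those from 300 bases (n = 331). The share was 23.3% from 250 bases, 21.8% from 200 bases, 20.1% from 150 bases, 18.9% from 100 bases and 17.4% under 100 bases. It was thus higher in each longer class up to that from 350 bases, and the intervals of neighbouring classes overlapped. Against the 827 clusters from 250 to under 300 bases alone, the difference narrowed to 5.62 points (Newcombe interval 1.37 to 9.83).

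Seen from the other side, the share of long clusters was lower where clusters were denser. It was 5.66% of 4206 Alu clusters with no other cluster within 50 kb (Wilson interval 5.0 to 6.40%). With 1 other cluster it was 4.31%, with 2 it was 3.63% and with 3 to 4 it was 3.20%. With 5 or more it was 2.76% of 1668 (2.07 to 3.66%). Over a flank of 200 kb the span was wider, with 9.36% of 566 Alu clusters that had no other cluster there (7.23 to 12.0%) and 3.12% of 12860 with 5 or more (2.83 to 3.43%). The read depth behind sparse and dense places is unknown, and its part in this pattern was not tested.

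**Figure D4:**
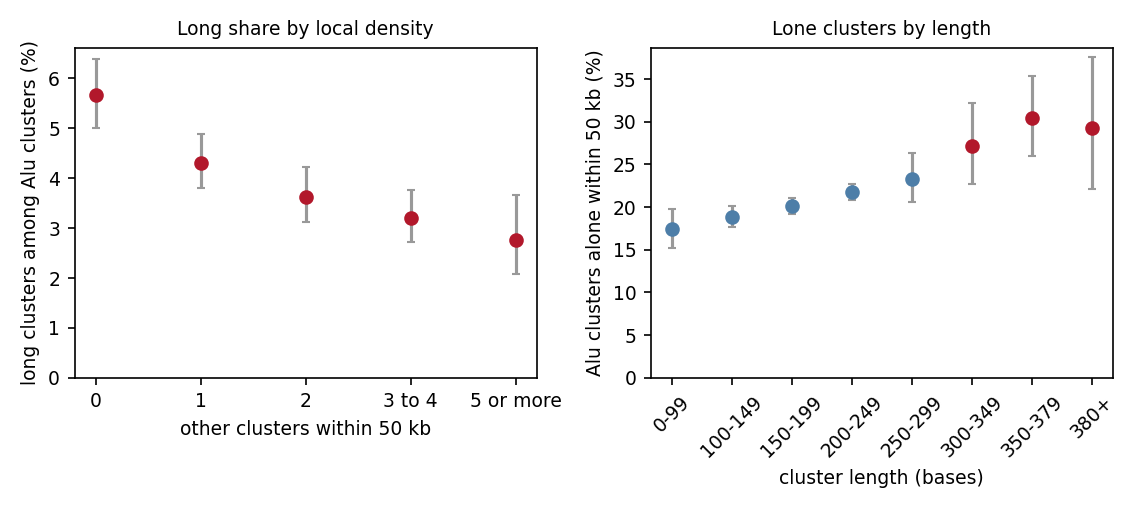
Left, long clusters as a percentage of Alu clusters by the number of other clusters within 50 kb; right, percentage of Alu clusters alone within 50 kb by length class, long classes in red and short ones in blue; bars are Wilson 95% intervals. The long share stands at 5.66% with no other cluster and 2.76% with 5 or more, and the lone share runs from 17.4% under 100 bases to 30.5% in the class from 350 bases.

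The shares by chromosome were also set beside the density. Across the 24 chromosomes, the share of long clusters and the mean number of other clusters around an Alu cluster had a Pearson's r of -0.48 and a Spearman's rho of -0.55, given as a description of 1 list whose chromosomes share the same libraries. Chromosomes 18, 19 and 21 were picked for their high or low share, so their values by density are a description. Chromosomes 18 and 21 together had long shares of 8.86% with no other cluster within 50 kb, 6.91% with 1, 8.78% with 2, 5.14% with 3 to 4 and 8.70% with 5 or more (2 of 23). The chromosomes other than 18, 19 and 21 had 5.58%, 4.24%, 3.42%, 3.32% and 2.79% in these classes. Intervals overlapped in all of these classes, such as 4.09 to 11.5% and 3.72 to 4.83% with 1 other cluster, except in 1. That was the class with 2 others, at 5.21 to 14.4% and 2.90 to 4.02%. Over 200 kb with no other cluster the order was the reverse, 7.69% on chromosomes 18 and 21 (2 of 26, 2.14 to 24.1%) and 9.38% on the others. In every other 200 kb class chromosomes 18 and 21 had the higher share. It was 6.98% against 6.68% with 1 other cluster and 7.58% against 6.36% with 2. In these 2 classes the intervals overlapped. With 3 to 4 it was 11.6% (7.65 to 17.3%) against 4.36% (3.74 to 5.07%). With 5 or more it was 5.45% (3.59 to 8.19%) against 3.10% (2.80 to 3.43%). The intervals did not overlap with 3 to 4 or with 5 or more. Chromosome 19 had 3.81%, 3.27%, 4.10%, 0.651% and 1.41% in the 50 kb classes. With 2 to 8 long clusters per class, the values of chromosome 19 are loosely fixed.

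Long clusters divided evenly between the genome strands. The plus strand held 400 (48.7%, Wilson interval 45.3 to 52.1%) and the minus strand 422, against 50.2% on the plus strand for short Alu clusters (49.5 to 50.9%). The difference of -1.50 percentage points had an interval that held 0 (Newcombe, -4.98 to 1.98). On single chromosomes the numbers were small, with 5 plus and 14 minus on chromosome 21 and 11 plus and 22 minus on chromosome X.

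The clusters around a long cluster mostly lay on its own strand. Of 1305 flanking clusters counted within 50 kb, 1149 (88.0%, Wilson interval 86.2 to 89.7%) shared the strand of the long cluster. Around short Alu clusters it was 32007 of 37665 (85.0%, 84.6 to 85.3%), a difference of 3.07 percentage points (Newcombe interval 1.16 to 4.76). A flanking cluster was counted once for every Alu cluster it flanked, so these are counts of pairs, not of separate clusters. The intervals treat the pairs as independent and are too narrow. With a flank of 10 kb the shares were 96.1% and 94.0%, and the interval of the difference held 0 (-0.76 to 3.79 points). With 200 kb they were 74.7% and 69.9%. Agreement was 88.9% around clusters from 300 bases and from 350 bases, and 83.3% around the 130 of 380 bases or more (77.6 to 87.8%), with overlapping intervals.

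Surroundings wholly on the other strand were uncommon. Of the 349 long clusters with 2 or more others within 50 kb, 271 (77.7%) had all of them on their own strand, 69 (19.8%) had both strands and 9 (2.58%, Wilson interval 1.36 to 4.83%) had only the other strand. Of 10190 such short Alu clusters, 7316 (71.8%) had only their own strand, 2462 (24.2%) both, and 412 (4.04%, 3.68 to 4.44%) only the other. The share of long clusters with all others on their own strand was thus somewhat higher, while the intervals for the other strand overlapped. Over all 822 long and 19378 short Alu clusters, also those with fewer than 2 others, the mean number of others within 50 kb was 1.59 and 1.94. The comparison was not matched for the number of others, and its part in the difference was not tested.

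A close neighbour on the same strand was about as frequent for long as for short clusters. Within 1000 bases, counted between nearest edges, one was found for 36 of 822 long clusters (4.38%, Wilson interval 3.18 to 6.00%) and for 946 of 19378 short ones (4.88%, 4.59 to 5.19%). The difference was -0.50 percentage points with an interval of -1.74 to 1.15. A difference appeared at a wider distance: within 5000 bases it was 16.3% of long and 20.6% of short clusters (-4.35 points, Newcombe interval -6.78 to -1.61). The clusters from 250 to under 300 bases had 16.4% at that distance, close to the long ones. The nearest same-strand cluster was at a median of 24.7 kb from long clusters (quartiles 8.23 and 65.7 kb) and 18.6 kb from short ones (6.24 and 50.5 kb).

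**Figure D5:**
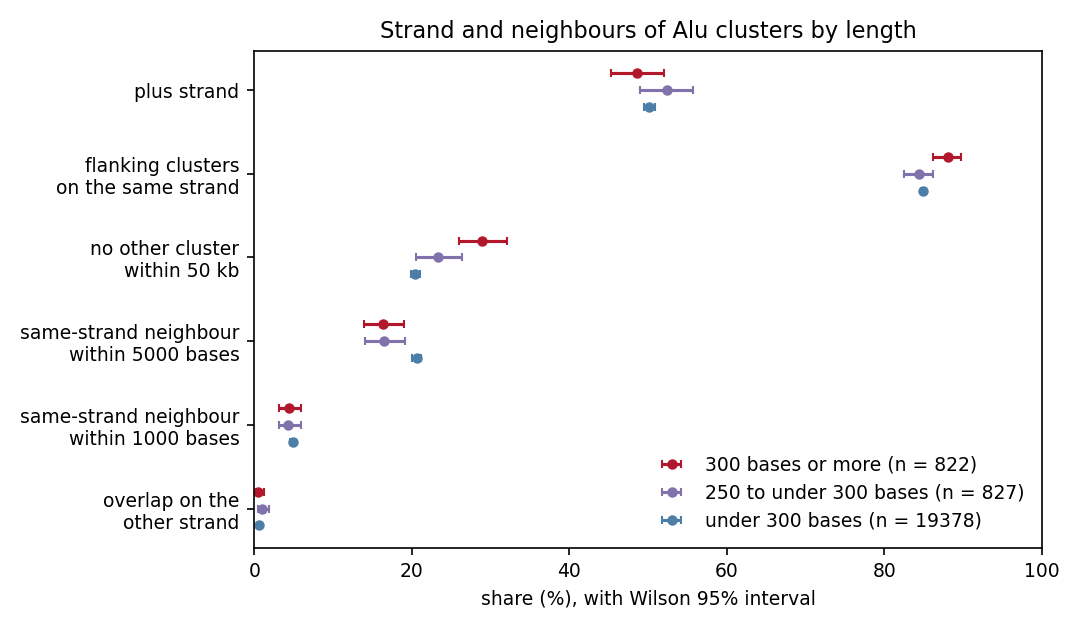
Share of Alu clusters of 300 bases or more (red), from 250 to under 300 bases (purple) and under 300 bases (blue) on the plus strand, alone within 50 kb, with a same-strand neighbour or overlapped on the other strand, and share of flanking clusters within 50 kb that lie on the same strand; bars are Wilson 95% intervals. Long and short Alu clusters stand apart for lone clusters (29.0% and 20.5%) and flanking strand (88.0% and 85.0%), and overlap for the plus strand and for neighbours within 1000 bases. The flanking strand counts pairs of clusters, so its intervals are too narrow.

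The 36 close neighbours of long clusters showed no preferred side. On the RNA strand, 18 lay 5′ and 18 lay 3′ of the long cluster. Of the 36, 32 were Alu and 4 non-Alu (88.9% Alu, Wilson interval 74.7 to 95.6%), against 880 of 946 for short Alu clusters (93.0%, 91.2 to 94.5%). The gap had a median of 350 bases for long and 471.5 bases for short clusters. For 7 long clusters it was 50 bases or less, so close clusters had not always been joined in the list. The smallest gap, 4 bases, was beside a long cluster of 346 bases on the minus strand of chromosome 2 (208792056 to 208792401). Gaps of 9 and 10 bases were found beside clusters of 367 bases on chromosome 1 (95344952 to 95345318, plus) and chromosome 18 (18607682 to 18608048, minus).

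Long clusters were also set against each other. Consecutive ones on a chromosome were separated by a median of 2.17 Mb, 784 windows of 100 kb held exactly 1, 19 windows held 2 and none held 3. Of 19 consecutive pairs within 50 kb, 17 were on the same strand. Among all flanking clusters within 50 kb, 88.0% around long and 85.0% around short Alu clusters shared the strand. The closest pair lay on the minus strand of chromosome 11, with 363 bases from 102471827 and 376 bases from 102472640, 450 bases apart; these 2 were the only long clusters that had another as nearest neighbour within 1000 bases. That is 2 of 36 such neighbours (5.56%, Wilson interval 1.54 to 18.1%), against 31 of 946 (3.28%, 2.32 to 4.61%) for short Alu clusters and a long share of 4.07% in the class. The 2 are a single pair counted from both sides, so the interval for long clusters is too narrow. The next pairs were on the plus strand of chromosome 10 (326 bases from 105732123 and 358 bases from 105734062, 1613 bases apart) and on the minus strand of chromosome 12 (325 bases from 82030046 and 385 bases from 82032408, 2037 bases apart). A pair of 371 and 306 bases on the minus strand of chromosome 5, from 114479527 and 114485470, was 5.57 kb apart. One of 313 and 366 bases on the minus strand of chromosome 17, from 2327421 and 2333673, was 5.94 kb apart.

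Overlap with a cluster on the other strand was rare at any length. It was found for 4 of 822 long clusters (0.487%, Wilson interval 0.189 to 1.24%) and 114 of 19378 short Alu clusters (0.588%, 0.490 to 0.706%). The difference was -0.10 percentage points. With thresholds of 280 and 350 bases it was 0.32 and 0.24 points, and each interval held 0. Per 100 kb of covered sequence there were 1.37 long and 3.22 short clusters with an overlap, since long clusters cover more bases each. The long value rests on only these 4 clusters. In 3 of the 4 the long cluster contained the whole of the other cluster. On chromosome 12 a minus-strand cluster of 368 bases (107094143 to 107094510) covered all 226 bases of its partner. On chromosome 3 a plus-strand cluster of 368 bases (113125182 to 113125549) covered all 168 bases, and on chromosome 7 one of 362 bases (102563112 to 102563473) all 182. On chromosome 17 a plus-strand cluster of 385 bases (56427736 to 56428120) overlapped 158 of 188 bases. All 4 had one of the recurring lengths, and around 3 of them no other cluster within 50 kb lay on their own strand.

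In other measures of place, the long clusters with a recurring length were set beside the rest. Of the 426, 49.5% were on the plus strand, against 47.7% of the 396 with another length. Alone within 50 kb were 29.6% (Wilson interval 25.4 to 34.1%) and 28.3% (24.1 to 32.9%). A same-strand cluster within 1000 bases was found for 17 (3.99%, 2.51 to 6.30%) and 19 (4.80%, 3.09 to 7.37%). All 17 neighbours of the first group were Alu, while 4 of 19 neighbours of the second were non-Alu. Flanking clusters shared the strand in 89.0% and 87.1% of cases. In each of these measures the intervals overlapped, which does not show that the groups are alike.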

How the data were processed

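A single list of clusters was deposited for the series, with chromosome, start, end, class and strand. Per the submitters' processing notes, cutadapt 1.1, Novoalign 2.08.22 and hg19 were used. The cluster caller, the rule that joined reads, the treatment of reads matching several repeats and the assignment of the Alu class are steps that the sources used here do not give; each can change cluster lengths and gaps. Starts were read as counted from 0 and are printed from 1.

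Lengths, gaps and flanking clusters were computed in scipy 1.17.1, pandas 2.3.3 and numpy 2.4.6 under Python 3.11.15, drawn with matplotlib 3.10.9 and checked on simulated clusters with planted neighbours. Wilson and Newcombe 95% intervals cover counting error only. Neighbours were counted within 1000 bases and flanks within 50 kb. The annotation at hand is GRCh38, so genes, transcript features and cluster sequences were not analysed here.

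The members, measures and lists were chosen with earlier results of these data known. Positions named were the 15 longest clusters, those overlapped on the other strand and the densest 100 kb windows; because 19 windows tied, the 5 closest pairs were named after their values were seen, as were the exact lengths, chromosomes and smallest gaps.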

Additional observations from a re-analysis of the deposited data

How the results depend on the processing

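Of 53 alternative values for 10 results, 45 stayed within the set range (the 95% interval, the same median difference or 1.5 times the count) and none turned a direction whose interval excluded 0. Moving the threshold to 350 bases left 491 long clusters, by construction; 280 bases gave 1128, 320 bases 696, and joining same-strand Alu clusters within 50 bases first gave 856. The difference in overlap on the other strand was 0.32 points at a threshold of 280 bases and 0.24 points at 350. Its sign is thus not fixed. Against the Alu clusters from 250 to under 300 bases only, this difference was -0.48 points and the median numbers of flanking clusters differed by 0. With a flank of 10 kb the medians also differed by 0, both being 0, and with 200 kb by -2 clusters. The 200 kb flank gave 4.80 points for strand agreement and 3.80 points for lone clusters; the cause was not tested. A neighbour distance of 5000 bases gave -4.35 points. At the other settings the neighbour difference lay between -0.81 and 0.26 points, so its sign is not fixed; the strand agreement at a threshold of 350 bases had an interval that held 0 (-0.20 to 4.59 points), as did the 10 kb flank (-0.76 to 3.79). Chromosome 21 over all chromosomes ranged from 1.46 to 2.06 times, chromosome 18 from 1.63 to 1.87 and chromosome 19 from 0.502 to 0.854; the interval held 1 for chromosome 21 at 350 bases and chromosome 19 at 280 bases. Lone clusters and the chromosome ratios were added after the data were seen. No paired analysis was possible because AB1 and AB2 are 1 library each and the deposited list does not tell them apart. No library could be left out for the same reason. Gene features and sequence words were not run, since no hg19 genome was used here.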

Other observations

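Both chromosome 16 clusters among the 15 longest Alu clusters had their nearest same-strand cluster at nearly the same distance on the same side. The cluster of 727 bases from 21413968 on the minus strand had an Alu cluster of 148 bases 12448 bases away on its 5′ side. The cluster of 475 bases from 22546870 on the plus strand had one of 120 bases 12464 bases away on its 5′ side. The match was noticed after the values were seen and was not tested.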
